A study of Mus musculus with 9 samples.

Results

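The 33 genes described here encode the machinery that stores, docks and releases synaptic vesicles at the presynaptic terminal. They were chosen by name, from 5 roles: 8 proteins of the vesicle itself, 6 SNARE proteins and the factors that recycle them, 8 calcium sensors and complexins, 9 active zone and priming proteins, and 2 vesicular glutamate transporters. All 33 were found by symbol among the 31804 genes of the count table, and all 33 passed the filter on low counts that left 16438 genes for testing. The levels come from polyA RNA-seq of hippocampus from 9 male C57BL/6NCrl mice, an inbred strain, and the study asked which genes depend on Camta1, a transcription factor of the calmodulin-binding CAMTA family. All 9 animals received a recombinant adeno-associated virus (rAAV) carrying a short hairpin RNA (shRNA), which was delivered by stereotaxic surgery to the dorsal hippocampus of mice aged 8 weeks. In 3 control animals the hairpin had no target, in 3 it was shRNA A against Camta1, and in 3 it was shRNA B, another sequence against Camta1. Tissue was taken 3 weeks after injection, and the infected area was cut out under the microscope guided by the red fluorescent protein mCherry. Cells were not sorted, so that glia and any uninfected neurons of that area were included, and no group without virus was analysed here. In such bulk tissue, fewer cells of a type and less RNA per cell cannot be told apart.

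When calcium enters the terminal, vesicles filled with transmitter fuse with the plasma membrane. Fusion is driven by the SNARE complex, formed by a synaptobrevin on the vesicle with syntaxin and Snap25 on the plasma membrane. Synaptotagmins sense the calcium and complexins hold and release the assembled SNAREs, while RIM, Munc13 and scaffold proteins of the active zone place and prime vesicles at the release site. Excitatory hippocampal neurons load their vesicles with glutamate, mostly through the transporter encoded by Slc17a7.

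Library totals lay between 29123744 and 38189288 counts, of which the 33 genes took 1.56% to 1.85%. Their smallest count in any library was 64, for Cplx3. Camta1 itself lay between 427 and 455 CPM (reads brought to a common library size with TMM factors) in the control libraries and between 145 and 266 CPM under either shRNA, with no overlap (exact two-sided permutation test, 6 against 3 libraries, p = 0.0119). With 3 against 3 libraries the smallest p possible is 0.1, which each shRNA alone gave. Its mean was 49.8% ± 9.36 of the control mean under shRNA A and 49.1% ± 14.3 under shRNA B (SD, n = 3 each). edgeR's test across all genes did not call Camta1, with adjusted p of 0.388 for shRNA A, 0.0776 for shRNA B and 0.107 for the mean of both. Hippocampal markers were present in every library, with summed lists of 566 to 1090.5 CPM for CA1 pyramidal cells and 448 to 832 CPM for dentate granule cells. Markers of other cell types differed between libraries. Interferon response genes lay at 89.7 to 98.7 CPM in controls, 113 to 158 CPM under shRNA A and 205 to 406 CPM under shRNA B, and microglia markers at 473 to 501, 507 to 572 and 578 to 660.0 CPM. Oligodendrocyte markers spanned 3009 to 4923, 4242 to 6637 and 3411 to 6959 CPM in the same order. Choroid plexus and ependyma markers summed to 1048 CPM in control replicate 3, while the other 8 libraries held 29 to 58.2 CPM. The part of these differences in the results for the presynaptic genes was not tested.

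Promoter sequences are shown for 3 genes picked after their low levels under shRNA A were seen, since the knocked-down protein is a transcription factor and relatives of it in plants bind DNA with the core letters CGCG. Each run below is the 250 bases before a RefSeq gene start, 5′ to 3′ on the strand of the gene, in build GRCm38.p6, with every CGCG in capitals. The coordinates are chr13:54302306-54302555 on the plus strand for Cplx2, chr6:115134652-115134901 on the plus strand for Syn2, and chr14:27622157-27622406 on the plus strand for Erc2.
Cplx2: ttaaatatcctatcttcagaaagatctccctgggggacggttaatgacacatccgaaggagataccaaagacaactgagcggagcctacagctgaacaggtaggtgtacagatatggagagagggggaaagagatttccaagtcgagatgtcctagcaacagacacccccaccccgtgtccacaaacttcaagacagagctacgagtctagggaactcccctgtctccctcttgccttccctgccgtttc
Syn2: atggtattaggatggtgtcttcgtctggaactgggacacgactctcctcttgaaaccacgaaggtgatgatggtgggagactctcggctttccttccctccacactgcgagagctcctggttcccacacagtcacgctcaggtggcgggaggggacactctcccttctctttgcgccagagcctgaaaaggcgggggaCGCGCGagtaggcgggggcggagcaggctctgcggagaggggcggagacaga
Erc2: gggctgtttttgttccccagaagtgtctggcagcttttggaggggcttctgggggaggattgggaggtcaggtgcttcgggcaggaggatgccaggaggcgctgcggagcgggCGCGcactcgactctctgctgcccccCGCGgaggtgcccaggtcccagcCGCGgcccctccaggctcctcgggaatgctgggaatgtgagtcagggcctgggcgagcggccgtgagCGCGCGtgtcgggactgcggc
Counting overlapping copies, the Cplx2 window held 0 copies of CGCG, the Syn2 window shown 2 and the Erc2 window 5. A second RefSeq start of Syn2 lay at the end of chr6:115238744-115238993, and its window held 0 copies. Of the 3 starts shown, only that of Syn2 was followed by bases that occur in a GENCODE M21 transcript of the gene. The second Syn2 start was too. Whether a GENCODE transcript begins at these starts was not checked. RefSeq windows were matched for 27 of the 33 genes, 35 windows in all. For 22 of them the first transcribed bases occurred somewhere in a GENCODE transcript of the gene. CGCG, which reads the same on both strands, occurred in 19 of the 35 windows (54.3%) and in 33.8% of the 32851 windows of all genes of the same length. The longer motif ACGCGT, which contains CGCG, occurred in 2 of 35 (5.71%, against 1.51% of all windows), and the cyclic AMP response element TGACGTCA in 1 of 35 (2.86%, against 1.55%). The presynaptic windows also held more CpG dinucleotides, with a median of 11 per window against 6 over all genes. The 10 matched genes with no CGCG were Syp, Rab3b, Stx1a, Vamp1, Syt1, Cplx2, Cplx3, Rims3, Unc13c and Slc17a7. These matches describe letters in a short window and do not show binding.

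In the control libraries the 33 genes covered a wide range of levels. Divided by exon length, their median was 41.1 CPM per kb, against 4.81 CPM per kb over the 15627 tested genes with a known length. Of the 33 genes, 24 lay above that median and 13 were in the top 5% of tested genes. Cplx2, which encodes complexin 2, had the highest level, at 501 ± 1.57 CPM per kb (SD, n = 3 control libraries). It was followed by Slc17a7 at 382 ± 48.1, the vesicle membrane protein gene Syp at 298 ± 21.2 and Cplx1 at 289 ± 27.4 CPM per kb. The SNARE genes Snap25 (286 ± 23.7) and Vamp2 (271 ± 18.1 CPM per kb) came next, and the ranges of these 4 genes from Syp to Vamp2 overlapped. At the other end were Slc17a6 (1.68 ± 0.382), Unc13c (1.38 ± 0.212), Sv2c (1.29 ± 0.259) and Cplx3 (0.86 ± 0.215 CPM per kb).

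**Figure D1:**
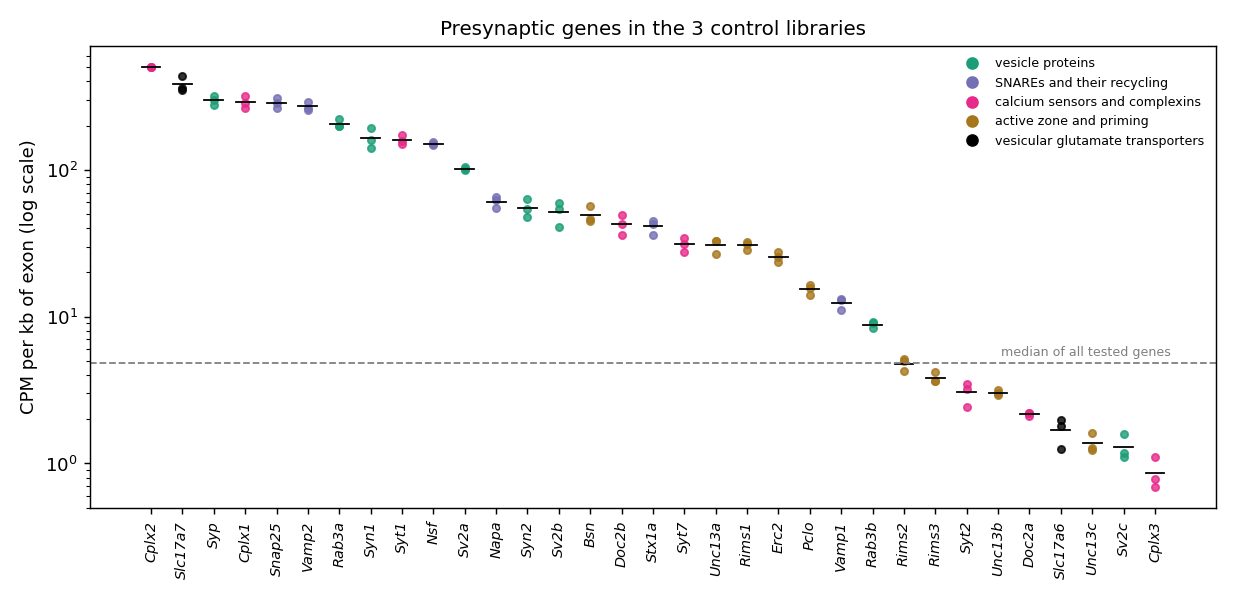
Control level of each of the 33 presynaptic genes, in CPM per kb of exon on a log axis. Points are the 3 control libraries, coloured by role, black bars their mean, and the dashed line the median of all tested genes (4.81 CPM per kb); levels run from 501 for Cplx2 to 0.86 for Cplx3.

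Within each family 1 member held most of the transcripts. On the scale of CPM per kb, Vamp2 made up 95.6% ± 0.286 of the 2 synaptobrevin genes in controls, Rab3a 95.9% ± 0.209 of the 2 Rab3 genes, and Doc2b 95.1% ± 0.79 of the 2 Doc2 genes (SD, n = 3). Unc13a, which encodes the vesicle priming factor Munc13-1, made up 87.3% ± 1.57 of its family and Syt1 82.4% ± 2.19 of the 3 synaptotagmin genes listed. Mean shares in the 3 groups are given only for the transporters and the RIMs, where some shRNA A shares lay outside the control range in every library. The same held for the Rab3b and Syt2 shares. Under shRNA B, each Vamp1 share, 3.47% to 4.04%, was below each control share, 4.16% to 4.71%. Each Rims2 share under shRNA B, 12.8% to 15.7%, was above each control share, 11.8% to 12.4%. The shares of the synapsin, SV2, Munc13 and complexin genes overlapped between each shRNA and control. Slc17a6 was 0.451% ± 0.147 of the 2 glutamate transporter genes in controls, 1.05% ± 0.198 under shRNA A and 0.435% ± 0.364 under shRNA B. Among the RIM genes, Rims1 held 78.0% ± 0.727, 72.7% ± 2.47 and 76.5% ± 3.12 in the same order, and Rims2 12.2% ± 0.376, 14.4% ± 0.0893 and 14.2% ± 1.45. Each of the 3 Rims1 shares under shRNA A, 71.0% to 75.6%, was below each control share, 77.2% to 78.7%. Shares between groups were given as values only and were not tested.

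Most of the 33 genes lay slightly below their control level under either shRNA, and edgeR's test across all genes called none of them. The median log2 fold change was -0.095 under shRNA A and -0.097 under shRNA B, while the median over all 16438 genes was 0.00 in both. Under shRNA A, 22 of the 33 log2 fold changes were below 0 (66.7%, against 49.9% of all genes), and under shRNA B 28 of 33 (84.8%, against 49.7%). Both comparisons share the same 3 control libraries. Over fits that each left out 1 library, the genes below 0 numbered 21 to 25 under shRNA A and 23 to 29 under shRNA B. Of all genes, 49.5% to 51% and 49.4% to 50.4% were below 0 in those fits. The plot of cumulative shares places the presynaptic curve to the left of all genes around 0, with a right tail under shRNA A made by Slc17a6, Syt2 and Cplx3.

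**Figure D2:**
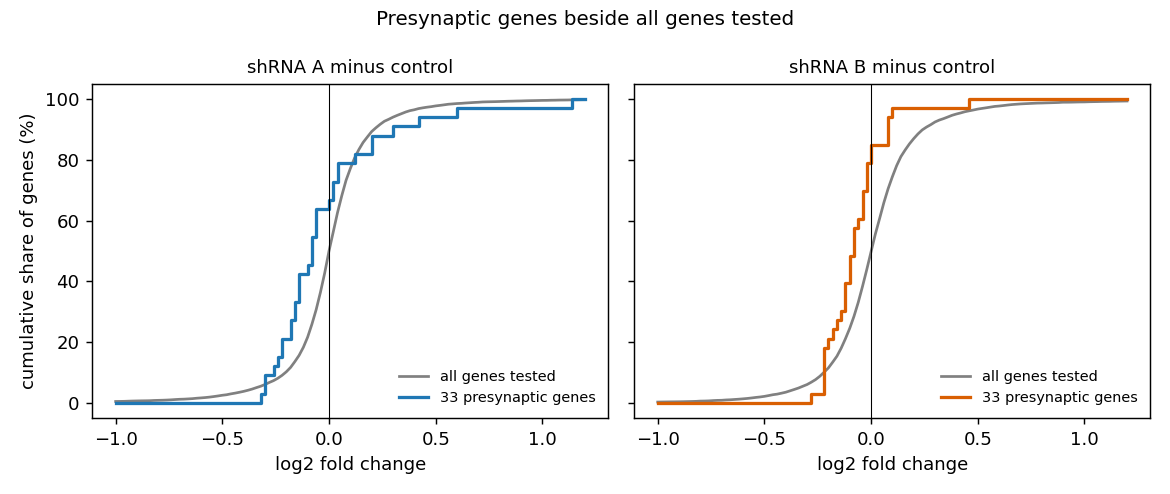
Cumulative share of genes (%) by log2 fold change, for shRNA A minus control (left) and shRNA B minus control (right). The coloured steps are the 33 presynaptic genes and the grey curve all 16438 genes tested; at 0 the presynaptic curve stands at 66.7% under shRNA A and 84.8% under shRNA B.

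edgeR's quasi-likelihood test with Benjamini-Hochberg adjustment over all genes called 0 of the 33 genes at an adjusted p under 0.05 in each of 4 comparisons. Among all genes it called 0.0243% for shRNA A, 1.02% for shRNA B, 0.0973% for the mean of both shRNAs and 0% for shRNA B minus shRNA A. At an unadjusted p under 0.05, 8 of 33 were lower and 0 higher under shRNA A, where 3.39% of all genes were lower and 3.52% higher. The counts were 5 lower and 0 higher under shRNA B (6.42% of all genes lower and 6.41% higher), and 6 lower and 0 higher for the mean of both (5.18% lower and 5.22% higher). In shRNA B minus shRNA A, 3 were lower and 0 higher (4.79% lower and 4.55% higher). limma-voom called 0 of the 33 in all 4 comparisons, against 0.00608%, 0.475%, 0.0791% and 0% of all genes in the same order, and DESeq2 called Cplx2 alone, for shRNA A and for the mean of both. The 95% interval of the log2 fold change lay within 0.5 of 0 for 24 of the 33 genes (72.7%) under shRNA A. It did so for 25 (75.8%) under shRNA B, and for similar shares of all genes, 71% and 69.5%.

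By library, the 33 genes did not split cleanly by group. Their median difference from the control mean, in log2 CPM, was -0.011, 0.095 and -0.069 in the 3 control libraries. It was -0.16, -0.088 and -0.057 under shRNA A, and -0.13, -0.13 and 0.0036 under shRNA B. Control replicate 2 was the high library, with 26 of 33 genes above the control mean, and shRNA B replicate 3 was near the controls, with 17 above and 16 below. Without control replicate 2 the medians were -0.042 under shRNA A and -0.066 under shRNA B, and 3 and 1 genes were lower at an unadjusted p under 0.05 (4.1% and 5.98% of all genes). Without control replicate 3, the library with choroid plexus markers, the medians were -0.13 and -0.11. The 12 pan-neuronal markers had medians of -0.10 and -0.13, with 11 and 12 of 12 below 0 and 2 lower at an unadjusted p under 0.05 in each, and edgeR called 0 of the 12. They summed to 6073 to 6587 CPM in controls, 5697 to 5943 CPM under shRNA A and 5494 to 6399 CPM under shRNA B. The 8 tested CA2 and CA3 pyramidal markers summed to 1378 to 1624, 1161 to 1203 and 1251 to 1386 CPM in the same order, with 7 of 8 below 0 under shRNA A and 4 of 8 under shRNA B. Of the 8 dentate granule markers, 7 were below 0 under shRNA A (median -0.20) and 8 under shRNA B (median -0.26), and they summed to 627 to 832, 588 to 701 and 448 to 732 CPM. The part of these cell types in the presynaptic medians was not tested.

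**Figure D3:**
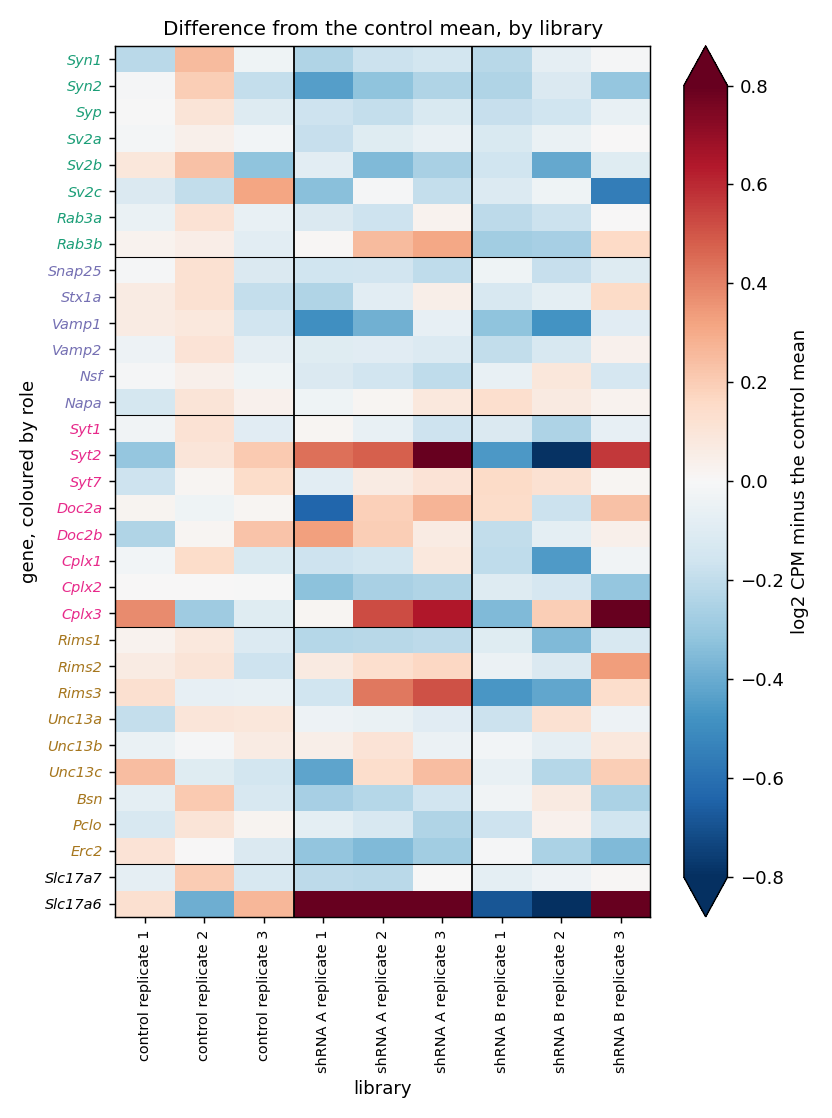
Each of the 33 presynaptic genes (rows, coloured by role) in each of the 9 libraries (columns), as log2 CPM minus the mean of the 3 control libraries; blue is lower, red higher, and values beyond 0.8 take the end colour. Control replicate 2 is the reddest control column, and Slc17a6 and Syt2 are red in shRNA A and in shRNA B replicate 3.

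Among the 8 vesicle proteins, 7 log2 fold changes were below 0 under shRNA A and all 8 under shRNA B, with medians of -0.18 and -0.13. Syn2, which encodes synapsin II, a phosphoprotein that tethers vesicles in the reserve pool (ENSMUSG00000009394, chromosome 6), measured 382, 442 and 338 CPM in the control libraries, 284, 308 and 327 under shRNA A, and 326, 355 and 311 under shRNA B. All 3 values under shRNA A were below the lowest control, and those under shRNA B overlapped the controls. The log2 fold change was -0.34 ± 0.10 (SE) under shRNA A, with an edgeR adjusted p of 0.496, and -0.23 ± 0.10 under shRNA B, with an adjusted p of 0.346. Syn1, the gene of synapsin I, measured 461, 638 and 525 CPM in the control libraries, 453, 477 and 486 under shRNA A, and 461, 511 and 533 under shRNA B. Its control libraries spread widely, replicate 2 was highest, and the groups overlapped (log2 fold changes -0.20 ± 0.10 and -0.11 ± 0.10). Syp, the gene of synaptophysin, an abundant vesicle membrane protein, measured 1551, 1667 and 1445 CPM in the control libraries, 1385, 1357 and 1424 under shRNA A, and 1365, 1389 and 1492 under shRNA B. The shRNA A values lay below all controls (log2 fold change -0.16 ± 0.074, edgeR adjusted p = 0.721), whereas shRNA B replicate 3 lay within the control range. Sv2a, a vesicle glycoprotein and the binding site of the antiepileptic drug levetiracetam, measured 466, 485 and 464 CPM in the control libraries, 416, 442 and 453 under shRNA A, and 434, 455 and 474 under shRNA B. It too was below all controls under shRNA A, by the small log2 fold change of -0.11 ± 0.065.

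The other vesicle genes overlapped between groups. Sv2b and Sv2c, paralogs of Sv2a, had log2 fold changes of -0.25 ± 0.13 and -0.19 ± 0.16 under shRNA A, and of -0.23 ± 0.13 and -0.23 ± 0.16 under shRNA B. Rab3a, the main vesicle-bound Rab GTPase of neurons, stood at -0.084 ± 0.083 and -0.12 ± 0.083. Rab3b, its low-abundance paralog, was the 1 vesicle gene with opposite signs, 0.19 ± 0.12 under shRNA A and -0.12 ± 0.12 under shRNA B. It measured 31.8, 32.3 and 29.3 CPM in the control libraries, 31.3, 37.1 and 38.5 under shRNA A, and 25.6, 25.8 and 34.8 under shRNA B.

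Of the 6 SNAREs and recycling factors, 5 lay below 0 under each shRNA, with medians of -0.13 and -0.065. Snap25, the plasma membrane SNARE, measured 1924, 2112 and 1792 CPM in the control libraries, 1736, 1742 and 1685 under shRNA A, and 1895, 1707 and 1808 under shRNA B. The shRNA A values lay below all controls, at a log2 fold change of -0.17 ± 0.078 (SE; edgeR adjusted p = 0.72). Vamp2, the main synaptobrevin, measured 1002, 1109 and 981 CPM in the control libraries, 964, 968 and 953 under shRNA A, and 897, 943 and 1053 under shRNA B. It was also below all controls under shRNA A, by a log2 fold change of -0.10 ± 0.078, and overlapped them under shRNA B, at -0.10 ± 0.078. Vamp1, the minor synaptobrevin, measured 132, 134 and 114 CPM in the control libraries, 89.8, 96.8 and 121 under shRNA A, and 101, 90.6 and 118 under shRNA B. Both shRNA groups had low libraries, 2 of 3 below every control in each, and overlapped the controls through replicate 3. Its log2 fold changes were similar under the 2 hairpins, -0.30 ± 0.12 and -0.29 ± 0.12, with edgeR adjusted p of 0.718 and 0.352.

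Nsf and Napa pull used SNARE complexes apart after fusion. Nsf, the ATPase, measured 1247, 1292 and 1226 CPM in the control libraries, 1157, 1129 and 1088 under shRNA A, and 1203, 1334 and 1141 under shRNA B. Under shRNA A it was below all controls (-0.16 ± 0.074), and under shRNA B its libraries surrounded them (-0.034 ± 0.074). Napa, the adaptor alpha-SNAP that recruits the ATPase, had log2 fold changes of 0.019 ± 0.074 and 0.076 ± 0.074, with 95% intervals of -0.14 to 0.18 and -0.085 to 0.24. Stx1a, the gene of syntaxin 1A, stood at -0.095 ± 0.10 and -0.017 ± 0.10, and its groups overlapped.

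Cplx2 was the 1 gene of the 8 calcium sensors and complexins that was lower at an unadjusted p under 0.05 under shRNA A. This complexin gene (ENSMUSG00000025867, chromosome 13) measured 2472, 2475 and 2460.5 CPM in the control libraries, 1968, 2063 and 2092 under shRNA A, and 2299.9, 2253 and 1995 under shRNA B. All 6 knock-down libraries were below all 3 controls, which held for 1 of the 33 genes (3.03%) and for a similar share of all genes tested (2%). The controls lay within a CV of 0.314%, against 2.26% to 25% for the other presynaptic genes. So close a match of 3 values does not measure the spread of the gene between animals. The group means were 2469 ± 7.76, 2041 ± 64.7 and 2183 ± 164 CPM (SD, n = 3 each), so that shRNA A left 82.7% and shRNA B 88.4% of the control mean. The log2 fold change was -0.27 ± 0.074 (SE) under shRNA A, -0.18 ± 0.074 under shRNA B and -0.23 ± 0.063 for the mean of both. The corresponding adjusted p-values from edgeR were 0.466, 0.337 and 0.219. DESeq2 on the same counts gave adjusted p of 0.0322 for shRNA A, where it called 0.201% of genes, and 0.0124 for the mean of both, where it called 1.34%. For shRNA B it called 0 of the 33 genes and 2.2% of all. Over all alternatives tried, the adjusted p of Cplx2 ran from 0.0322 to 0.972 for shRNA A and from 0.0124 to 0.556 for the mean of both, and its log2 fold change from -0.29 to -0.25 and from -0.25 to -0.20. In the authors' deposited table Cplx2 was the only 1 of the 33 with an adjusted p under 0.05, at 0.0126 in a likelihood ratio test over the 3 groups, which called 2.51% of the genes with an adjusted p. The call depended on the tool.

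**Figure D4:**
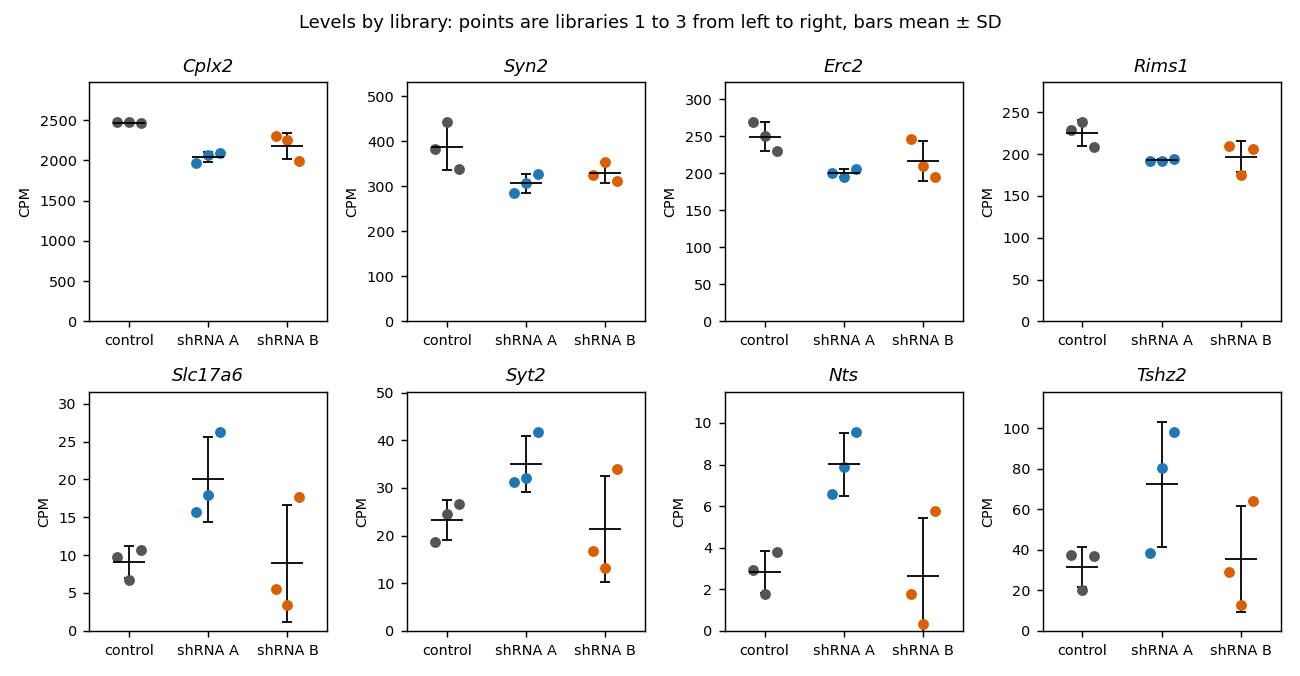
CPM by library, on linear axes from 0, for Cplx2, Syn2, Erc2, Rims1, Slc17a6 and Syt2, and for the subiculum markers Nts and Tshz2. Points are libraries 1 to 3 of each group and black bars the mean ± SD; Cplx2 is below all 3 controls in all 6 knock-down libraries, and the last 4 genes are high in shRNA B replicate 3.

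The other complexins and sensors overlapped with the controls, except Syt2 under shRNA A. Cplx1 measured 621, 699 and 581 CPM in the control libraries, 563, 570.2 and 670.2 under shRNA A, and 548, 462 and 619.6 under shRNA B. Replicate 2 was lowest under shRNA B, and the log2 fold changes were -0.076 ± 0.11 and -0.22 ± 0.11. Cplx3, a complexin of ribbon synapses and of a few cortical neurons, lay between 1.94 and 5.73 CPM over all libraries, with its highest value in shRNA B replicate 3, and its fold changes were too uncertain to place (0.40 ± 0.38 and 0.45 ± 0.37). Syt1, the main fast calcium sensor of forebrain synapses, measured 1304, 1443 and 1251 CPM in the control libraries, 1344, 1276 and 1188 under shRNA A, and 1226, 1122 and 1272 under shRNA B. Its fold changes were -0.07 ± 0.082 and -0.14 ± 0.082, with 95% intervals of -0.25 to 0.11 and -0.32 to 0.033. Syt7, a high-affinity sensor of slower release, stood at 0.026 ± 0.086 and 0.09 ± 0.086. Doc2a and Doc2b encode sensors tied to spontaneous and asynchronous release. Doc2a, at 3.9 to 7.36 CPM, had fold changes of -0.0025 ± 0.20 and 0.079 ± 0.20, and its exons overlap 1103 bases of Ino80e on the opposite strand, whose reads cannot be told apart in these unstranded libraries.

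The active zone and priming genes held 3 of the 8 that were lower at an unadjusted p under 0.05 under shRNA A: Erc2, Rims1 and Bsn. Erc2 encodes CAST (also ELKS2), a scaffold that binds RIM and Bassoon (ENSMUSG00000040640, chromosome 14), and measured 269, 249.7 and 229 CPM in the control libraries, 200.3, 195 and 205 under shRNA A, and 247, 209 and 195 under shRNA B. All 3 shRNA A libraries were below all controls, and under shRNA B replicate 1 lay among the controls and the other two below them. The log2 fold change was -0.32 ± 0.089 (SE, edgeR adjusted p = 0.496) under shRNA A and -0.20 ± 0.089 (adjusted p = 0.371) under shRNA B. Rims1, the gene of RIM1, which ties vesicles to calcium channels (ENSMUSG00000041670, chromosome 1), measured 229, 238 and 208 CPM in the control libraries, 192, 192 and 195 under shRNA A, and 210.1, 176 and 206 under shRNA B. The shRNA A libraries were nearly equal and below all controls, and those under shRNA B overlapped them through replicate 1. Its log2 fold changes were -0.22 ± 0.079 (edgeR adjusted p = 0.659) and -0.19 ± 0.079 (adjusted p = 0.334). Bsn, the gene of the giant scaffold Bassoon, measured 738, 899.8 and 714 CPM in the control libraries, 647, 665 and 703 under shRNA A, and 766, 820.0 and 654 under shRNA B. It was below all controls under shRNA A (-0.22 ± 0.10) and spread across them under shRNA B (-0.07 ± 0.10).

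Pclo, whose product Piccolo is related to Bassoon, had log2 fold changes of -0.15 ± 0.082 and -0.10 ± 0.082, and its groups overlapped. The 3 Munc13 genes, which prime vesicles by opening syntaxin, lay close to 0 under both shRNAs. Unc13a stood at -0.069 ± 0.092 and -0.033 ± 0.092, Unc13b at 0.038 ± 0.067 and -0.0022 ± 0.067, and Unc13c at 0.0083 ± 0.18 and -0.03 ± 0.18. Unc13b had the tightest intervals of these 3, at -0.11 to 0.18 and -0.15 to 0.14. Of the less abundant RIM genes, Rims2 was at 0.12 ± 0.11 and 0.064 ± 0.11, and Rims3 at 0.29 ± 0.20 and -0.23 ± 0.20.

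**Figure D5:**
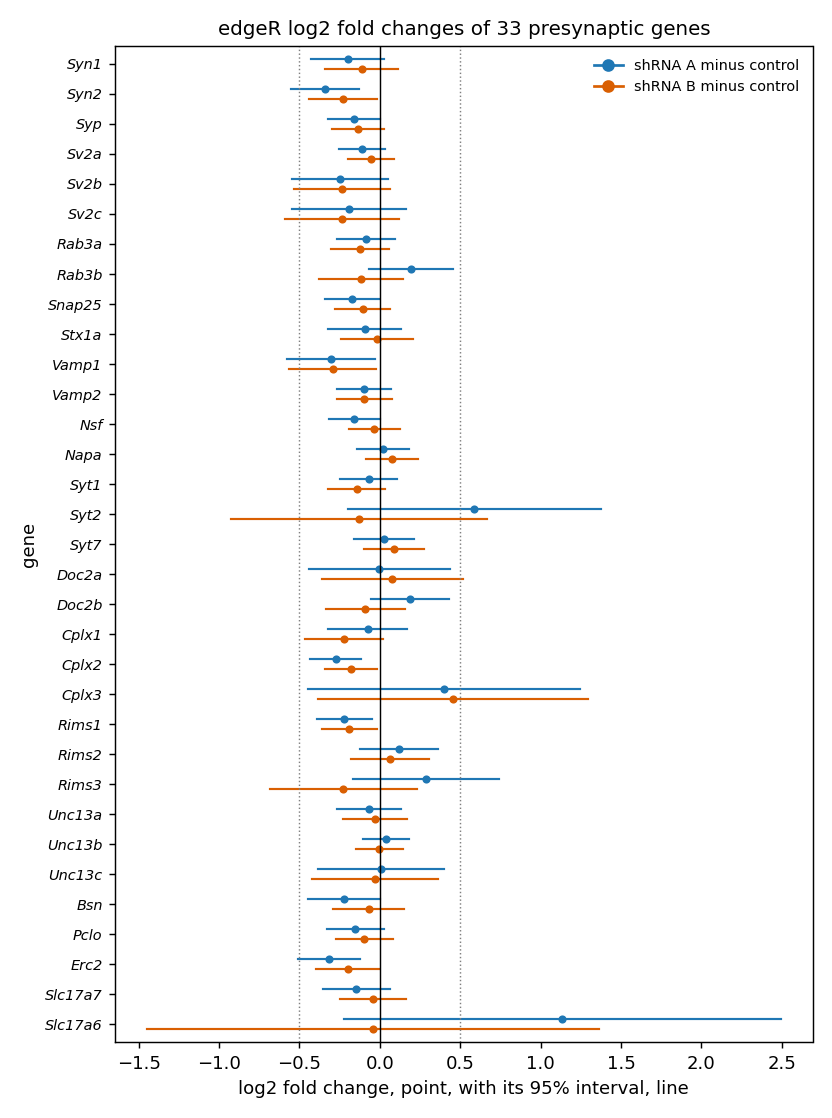
Log2 fold change (point) with its 95% interval (line) for each of the 33 presynaptic genes, shRNA A minus control in blue and shRNA B minus control in orange, from edgeR. Dotted lines mark 0.5 on either side of 0; the points of 22 genes under shRNA A and 28 under shRNA B lie below 0, and the widest intervals belong to Slc17a6, Cplx3 and Syt2.

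The 2 vesicular glutamate transporters differed widely in level. Slc17a7 encodes VGLUT1, the main transporter of hippocampal pyramidal and granule cells, and measured 1946, 2355 and 1875 CPM in the control libraries, 1772, 1762 and 2046 under shRNA A, and 1941, 1991 and 2066 under shRNA B. Its fold changes were -0.15 ± 0.10 and -0.042 ± 0.10, and the groups overlapped. Slc17a6, the gene of VGLUT2, which is typical of thalamic and other subcortical neurons (ENSMUSG00000030500, chromosome 7), measured 9.77, 6.78 and 10.7 CPM in the control libraries, 15.8, 17.9 and 26.3 under shRNA A, and 5.53, 3.43 and 17.7 under shRNA B. All 3 shRNA A libraries were above all controls, while under shRNA B replicates 1 and 2 were below all controls and replicate 3 above them. The log2 fold change was 1.14 ± 0.57 (SE, edgeR adjusted p = 0.751) under shRNA A and -0.044 ± 0.59 (adjusted p = 0.988) under shRNA B.

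Syt2, the fast calcium sensor of many hindbrain and parvalbumin-positive terminals (ENSMUSG00000026452, chromosome 1), had a similar pattern. It measured 18.6, 24.6 and 26.7 CPM in the control libraries, 31.2, 32 and 41.8 under shRNA A, and 16.7, 13.3 and 34.1 under shRNA B, again above all controls under shRNA A and divided under shRNA B. Its log2 fold changes were 0.59 ± 0.34 (edgeR adjusted p = 0.766) and -0.13 ± 0.34 (adjusted p = 0.922). These were the only 2 of the 33 genes above all controls under shRNA A (6.06%, against 6.84% of all genes), while 10 of 33 were below all controls (30.3%, against 5.65%). Under shRNA B, 0 of 33 were above and 1 of 33, Cplx2, below all controls, against 9.27% and 8.88% of all genes.

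Some markers of the subiculum and nearby cortex, and of interneurons, shared the pattern of Slc17a6 and Syt2 across libraries, and others did not. Nts, which encodes the peptide neurotensin, measured 2.95, 1.75 and 3.78 CPM in the control libraries, 6.58, 7.88 and 9.59 under shRNA A, and 1.78, 0.346 and 5.76 under shRNA B. Tshz2, a transcription factor gene, measured 37.5, 20 and 36.8 CPM in the control libraries, 38.3, 80.1 and 98.3 under shRNA A, and 29, 12.9 and 64.2 under shRNA B. Both markers had high levels in shRNA A replicates 2 and 3, and replicate 3 stood out within shRNA B. Fn1 and Nr4a2 were also above all controls under shRNA A, which made 4 of the 11 tested genes of the list (36.4%, against 6.84% of all genes). Rorb (22.5, 20.6 and 18.9 CPM), Rprm (23.7, 22.8 and 22) and Tle4 (57.4, 50.3 and 48.8) were instead lowest in replicate 3 within shRNA B. The list summed to 421 to 456 CPM in controls, 445 to 535 CPM under shRNA A and 403 to 496 CPM under shRNA B, with 7 of 11 above 0 under shRNA A and 4 of 11 under shRNA B. The 7 parvalbumin markers summed to 481 to 518, 448 to 486 and 442 to 478 CPM, and 5 of 7 were below 0 under each shRNA. Pvalb itself measured 23.7, 29.6 and 27.5 CPM in the control libraries, 33.8, 33.2 and 37.5 under shRNA A, and 27.1, 20.9 and 36 under shRNA B. Kcnab3, a potassium channel subunit gene of that list, measured 22.6, 26.1 and 29 CPM in the control libraries, 31, 29 and 36.9 under shRNA A, and 21.8, 23.2 and 34.5 under shRNA B. Both, 2 of the 7 (28.6%, against 6.84% of all genes), were above all controls under shRNA A, barely so for Kcnab3 in replicate 2. Within shRNA B both were highest in replicate 3. Of the 8 markers of other interneuron types, 4 were below 0 under shRNA A and 7 under shRNA B. Sst, the gene of the peptide somatostatin, measured 132, 151 and 128 CPM in the control libraries, 157, 203 and 179.7 under shRNA A, and 78.1, 81.1 and 143 under shRNA B. It alone of that list was above all controls under shRNA A, where 6.84% of all genes were. Cnr1 of the same list went the other way and was below all controls under both shRNAs. It measured 209, 201 and 167 CPM in the control libraries, 151, 151 and 158 under shRNA A, and 143, 160 and 164 under shRNA B. The thalamus and habenula list summed to 245 to 267, 249 to 268 and 263 to 291 CPM, with 6 of 12 tested genes below 0 under each shRNA. Under shRNA A, 1 of those 12 was above all controls, Plekhg1 (43, 41.6 and 38.8 CPM, against 26.3, 36.3 and 33.9), and 1 below them, Lhx9 (14.6, 14 and 11.5, against 18.9, 20.1 and 16.6). Each made 8.33% of the tested list, against 6.84% of all genes above and 5.65% below. These single markers were chosen after their values were seen. The part of these cell types in the Slc17a6 and Syt2 values was not tested.

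The direct comparison of the 2 hairpins, shRNA B minus shRNA A, called 0 of the 33 genes in edgeR, DESeq2 and limma-voom, while DESeq2 called 0.702% of all genes. The 3 genes lower at an unadjusted p under 0.05 were Rab3b (-0.31 ± 0.12, adjusted p = 0.442 in edgeR), Doc2b (-0.28 ± 0.11, adjusted p = 0.467) and Rims3 (-0.51 ± 0.20, adjusted p = 0.482). Doc2b measured 157, 186 and 216 CPM in the control libraries, 232, 212 and 193 under shRNA A, and 161, 175 and 189.6 under shRNA B. It was the 1 gene of the 33 whose shRNA B libraries all lay below the shRNA A libraries (6.95% of all genes), and 0 of the 33 lay above them (7.29%). Rims3 measured 33.2, 29.1 and 29.2 CPM in the control libraries, 27.3, 40.9 and 43.3 under shRNA A, and 22, 22.8 and 33.5 under shRNA B, with the 2 lowest values in shRNA B and the 2 highest in shRNA A. The largest differences were those of Slc17a6 (-1.18 ± 0.57, adjusted p = 0.595) and Syt2 (-0.72 ± 0.34, adjusted p = 0.581). Their call turned on 1 library: without shRNA B replicate 3, edgeR called Slc17a6 at -2.14 (adjusted p = 0.035), Syt2 at -1.22 (0.0288) and Rab3b at -0.47 (0.0491), with 0.482% of all genes called lower. Markers of hippocampal regions also set that library apart within shRNA B: dentate granule markers summed to 732, 719.9 and 448 CPM in replicates 1, 2 and 3, and CA1 markers to 566, 763 and 1073 CPM. The part of this in the 3 calls was not tested. Under the other alternatives these 3 genes were not called, with adjusted p-values up to 0.999. Without that library the shRNA B minus control values were -1.01 for Slc17a6 (adjusted p = 0.231) and -0.63 for Syt2 (0.169). For Cplx2 the difference between the hairpins was 0.10 ± 0.074, with a 95% interval of -0.063 to 0.26.

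Other genes of the presynaptic pathway also had medians slightly below 0. The list held 90 further genes, of other SNAREs, synaptotagmins, active zone and vesicle proteins, transporters and vesicle endocytosis, of which 89 were in the table and 86 were tested. edgeR and limma-voom called 0 of the 86 in all 4 comparisons. Under shRNA A, 58 of 86 log2 fold changes were below 0 (67.4%, against 49.9% of all genes), with a median of -0.054. At an unadjusted p under 0.05, 10 were lower and 2 higher, where 3.39% of all genes were lower and 3.52% higher. Under shRNA B, 62 of 86 were below 0 (72.1%, against 49.7% of all genes), with a median of -0.060. Here 12 were lower and 3 higher, where 6.42% of all genes were lower and 6.41% higher. The unadjusted counts were 14 lower and 3 higher for the mean of both (5.18% of all genes lower and 5.22% higher). They were 9 lower and 3 higher for shRNA B minus shRNA A (4.79% of all genes lower and 4.55% higher). DESeq2 called 3 of the 86, for shRNA B only, where it called 2.2% of all genes: Doc2g, a Doc2 relative (log2 fold change 0.79 ± 0.18, SE, in edgeR), Stxbp2, a Munc18 gene (0.43 ± 0.10), and Dnm3, a dynamin of vesicle endocytosis (-0.28 ± 0.067). These 3 are named after their values were seen, and their edgeR adjusted p-values were 0.0632, 0.082 and 0.0747. Under shRNA B the lowest medians by role were those of the 20 other vesicle proteins (-0.11, 19 below 0) and the 20 endocytosis genes (-0.092, 16 below 0). The 14 other SNAREs and their regulators were split evenly, with 7 below 0 under each shRNA and medians of -0.012 and -0.0012.

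The authors' deposited table gave nearly the same log2 fold changes for the 33 genes, for example -0.34 and -0.23 for Syn2 and -0.32 and -0.20 for Erc2 under shRNA A and shRNA B. There, 8 of the 33 genes had an unadjusted p under 0.05 in the likelihood ratio test, against 7.64% of all genes. Exons of 8 of the 33 genes overlap at least 100 bases of another gene on the opposite strand, 2 of them (Doc2a with Ino80e and Unc13a with Colgalt1) a protein-coding gene. Erc2 (106 bases), Syp (875 bases) and Rab3b (317 bases) are among the other 6, and their counts may hold reads of the overlapping noncoding gene.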

How the data were processed

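RNA of 9 hippocampal samples, 3 animals per group per the series' design, was sequenced from unstranded polyA libraries. Per the file headers, the deposited values are raw whole-number counts of reads for each Ensembl gene. Tools credited to the submitters' processing notes are HTSeq 0.6.1, TopHat 1.4.1, SAMtools 0.1.19, R 3.1.1 and DESeq2 1.4.5, with build mm9; the notes give no roles or settings. The authors' deposited table also holds a mean normalized signal, log2 fold changes with standard errors, and a likelihood ratio test's score with its raw and adjusted p-value, per the file headers.

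Counts were analysed with edgeR 4.0.16 (filterByExpr by group, TMM, quasi-likelihood test, robust) in R 4.3.3 on all 9 libraries, with Benjamini-Hochberg adjustment over 16438 genes and a threshold of 0.05, two-sided. Contrasts were each shRNA against control, the average of both against control, and one hairpin against the other. The SE is the log2 fold change divided by the square root of F, and the common biological coefficient of variation was 9.45%. CPM used the TMM factors; 1 read was worth 0.0262 to 0.0343 CPM. Library pairs of a group differed beyond counting noise (chi-square per degree of freedom 8.32 to 22.1). The test was tested on simulated data with planted changes larger than most of those seen here, and no result rests on it. Alternatives were DESeq2 1.42.0, limma-voom (limma 3.58.1), other scalings and filters, fits to 2 groups, a replicate block and leaving out each library. Exon lengths and overlaps are from GENCODE M21 (GRCm38), not the counting build, and promoters from RefSeq. All 33 members were named; other presynaptic genes were to be named only past the threshold, and cell type markers singly only where their list moved with a result, with exceptions named in the text. Members and lists were chosen with earlier results of these data known.

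Replicate numbers are in the sample titles. Deviations of same-numbered libraries from their group means correlated at -0.13 to 0.27, above 0.1 in 2 of 9 pairs, so that the numbers were not treated as pairs. Libraries of different numbers and groups correlated at -0.20 to 0.12. Same-numbered pairs of shRNA A with shRNA B were all above 0, at 0.11, 0.089 and 0.27, and those with a control were all below 0.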

Additional observations from a re-analysis of the deposited data

How the results depend on the processing

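With 3 libraries a group, 1 library could move the results. Over fits that each left out 1 library, edgeR called 0 to 10 genes for shRNA A (4 with all libraries), 13 to 217 for shRNA B (167), 1 to 52 for the mean of both (16) and 0 to 110 for shRNA B minus shRNA A (0). Presynaptic genes called ranged from 0 to 3 in shRNA B minus shRNA A, the 3 coming without shRNA B replicate 3 (Slc17a6, Syt2 and Rab3b), and were 0 in the other comparisons. Their medians ranged from -0.14 to -0.042, from -0.13 to -0.047, from -0.12 to -0.044 and from -0.012 to 0.054 in the same order, against a pooled SD of 0.071 between libraries. Among values larger than their SE, 3 changed sign: Syn1 under shRNA B (-0.21 to 0.022 over these fits) and Slc17a7 in the mean of both (-0.16 to 0.011), both without control replicate 2, and Cplx3 under shRNA B without shRNA B replicate 3 (-0.088 to 0.76). The cause was not tested.

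DESeq2 called 41, 380, 225 and 121 genes in the same order of comparisons, with 1 presynaptic gene, Cplx2, for shRNA A and 1 for the mean of both. limma-voom called 1 gene for shRNA A and 78 for shRNA B. Without a filter on low counts 9 genes were called for shRNA A, 67 for the mean and 21 for shRNA B minus shRNA A. Without robust estimation 2 were called for shRNA A, and fits to the 2 groups compared called 18 for shRNA A and 42 for shRNA B. The mean of both needs all groups and has no such fit. Scaling by library size alone left 26 of 33 presynaptic genes below 0 under shRNA B, where 43.8% of all genes were. With a replicate block, edgeR called 5, 148, 31 and 1 genes, 0 of the 33 presynaptic genes in all 4 comparisons, and gave medians of -0.099, -0.10, -0.097 and 0.027. Of the 9 libraries, 5 correlated best with a library of their own number. Counts limited the precision most for Cplx3, at 64 reads in its lowest library.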
